A study of Mus musculus with 36 samples.

Results

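The comparison concerned mouse embryonic fibroblasts that lack PKBa, the kinase also called Akt1, and asked which transcripts differed between the labelled times 0 and 6 of a time course. The arrays were chosen by their labels alone: PKBa-/- at time 6, replicates 1 to 4, against PKBa-/- at time 0, replicates 1 to 4, which made 8 of the 36 arrays of the series. The other arrays held PKBa-/- cells at times 2, 24 and 48 and wild type cells at the same 5 times, with 2 arrays a genotype at time 2 and 4 at each other time. Cells of both genotypes came from embryos of 13.5 days from intercrosses of heterozygous animals and were used between passages 15 and 20. They were grown in DMEM, a standard culture medium, with 10% foetal calf serum, and the series names DMEM as the treatment. The protocol also describes an adipocyte induction mixture of IBMX (which blocks the breakdown of cAMP), dexamethasone (a synthetic glucocorticoid), insulin, biotin and pantothenate, given to cells 2 days after confluence. The labels do not say which of these the arrays received, and they give no unit for the times. They also do not say how many embryos or lines stand behind each genotype, or whether replicates were separate cultures, so p-values measure the spread between these samples, which may be technical.

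PKBa is a serine/threonine kinase that is recruited to the membrane by lipids made by PI3 kinase after insulin or growth factors bind their receptors. It phosphorylates, among others, FoxO transcription factors, which then leave the nucleus, and regulators of mTOR, glycogen synthase kinase and protein synthesis. In most cells PKBa acts beside the related PKBb, or Akt2, and neither replaces the other in every tissue. Fibroblasts that are given fresh serum or hormones pass through an early wave of transcription factor genes, followed by genes of growth, cytoskeleton and matrix.

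The labels were checked first on the deleted gene. Akt1 signal (the brightness of its probe set, on the linear scale deposited) was 70.6 ± 18.5 (SD, n = 4) in PKBa-/- cells at time 0 and 67.1 ± 15.8 at time 6. In wild type the Akt1 signal was 1173 ± 214 and 1026 ± 44.6 at these times (SD, n = 4 each), far above every PKBa-/- array. The region that the Akt1 probe set reads relative to the deletion was not examined. Fibroblast markers were bright, and their summed signal over 10 of 11 listed genes ran from 69254 to 77181 at time 0 and from 70146 to 73184 at time 6. This sum follows its brightest members and does not show the dimmer ones. Pdgfra fell from a mean of 1197 to 676 and Pdgfrb from 1332 to 476 (limma, adjusted p = 8e-05 and 2.9e-07), and the others did not pass. The summed signal of 8 macrophage and leukocyte markers was 588 to 672 and 575 to 656, and that of 8 adipocyte markers 1249 to 1695 and 1387 to 1504. Of single defining markers, leukocyte Ptprc had mean signals of 18.1 and 17.2 and adipocyte Adipoq 20.0 and 19.1, near the low end of the arrays. Other members were brighter, such as leukocyte Csf1r at 238 and 217 and adipocyte Lpl at 793 and 826. Neither of these passed (limma, adjusted p = 0.41 and 0.76). Marker sums of the other cell types overlapped between the times as well. Single dim markers that were not tested did move without overlap, such as neural Tubb3 (means 71.6 and 119) and adipocyte Pparg (75.8 and 53.9). Within each time the arrays of replicates 1 and 2, and those of replicates 3 and 4, tended to resemble one another more. In PKBa-/- the correlations were 0.988 to 0.996 inside pairs and 0.981 to 0.989 between them. The wild type ranges lay further apart, at 0.993 to 0.997 inside pairs and 0.961 to 0.967 between them. A count from the means of these pairs, 2 against 2, is therefore given beside most main counts and called the count from pair averages. In bulk RNA a change in the number of cells of a type cannot be told apart from a change of RNA per cell.

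Of 7436 genes tested, 3004 changed (40.4% of genes tested, limma with Benjamini-Hochberg adjusted p under 0.05), 1476 rising (19.8%) and 1528 falling (20.5%). These shares are the background for every gene group that follows. From pair averages 1366 genes passed (18.4%), 639 rising (8.59%) and 727 falling (9.78%). A change of at least 2-fold was reached by 94 rising and 143 falling genes. The median change over all genes tested was -0.01 on the log2 scale. The arrays of times 0 and 6 did not overlap for 3227 genes (43.4%). That share is the background for each statement on overlap of a single gene below, and most of those genes were picked for a large change.

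Among the largest rises was Vdr, the nuclear receptor for vitamin D. Vdr signal was 229, 224, 186 and 248 on the 4 arrays of time 0 and 2769.7, 2932, 2684 and 2807 on those of time 6. Every time 6 array lay above every time 0 array, and the change was 3.49 ± 0.16 (log2 ± SE, limma, adjusted p = 3.3e-17). Prg4, which encodes the lubricating proteoglycan lubricin, went from 46.5, 34.6, 34.5 and 33.3 to 843, 747, 959.8 and 1063, so that its time 0 arrays lay at the dim end of the scale and its change of 3.75 ± 0.58 rests on a low starting level. Has2, a synthase of the matrix polysaccharide hyaluronan, had signals of 246, 274, 251 and 304 and then 1374, 1411, 1318 and 1485, a change of 2.25 ± 0.26. Uap1 makes the UDP-N-acetylglucosamine that hyaluronan and glycans are built from, and rose by 2.13 ± 0.11. Slc16a1, a transporter of lactate and pyruvate, read 392, 395, 343 and 354 at time 0 and 1636, 1512, 1209 and 1328 at time 6. Its change was 1.84 ± 0.16, against 0.01 ± 0.16 in wild type. Cd24a, a small surface glycoprotein, rose by 2.20 ± 0.19, and the pairs of time 6 arrays differed for it, at 1182, 1176, 689 and 736.

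The largest falls included Slc40a1, ferroportin, the exporter of iron from cells. Its signal was 981, 922, 1322 and 1127 at time 0 and 106, 136, 159 and 133 at time 6, a change of -2.75 ± 0.13 (limma, adjusted p = 2.8e-17). Adamts5 and Adamts1, secreted proteases that cut the proteoglycan aggrecan, fell with no overlap between times. Adamts5 read 853, 796, 821 and 768 and then 88.7, 95.2, 95.7 and 146, and Adamts1 1890.1, 1691, 1866 and 1748 and then 390.3, 340.0, 389.6 and 408. Their log2 changes were -2.62 ± 0.11 and -2.15 ± 0.11. Plin2, a coat protein of lipid droplets, had 2166, 2118, 2240.0 and 2359 at time 0 and 461, 441, 483 and 493 at time 6 (change -2.17 ± 0.08). Pdlim2 and Palld, which bind the actin cytoskeleton, changed by -2.65 ± 0.13 and -1.64 ± 0.13, and Cdc42ep3, an effector of the GTPase CDC42, by -2.25 ± 0.10. F3, tissue factor, the starter of coagulation, fell by 2.08 on the log2 scale, from 855, 1061, 1067 and 979 to 193, 227, 199 and 222. All of these time 6 values lay below all their time 0 values.

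**Figure D1:**
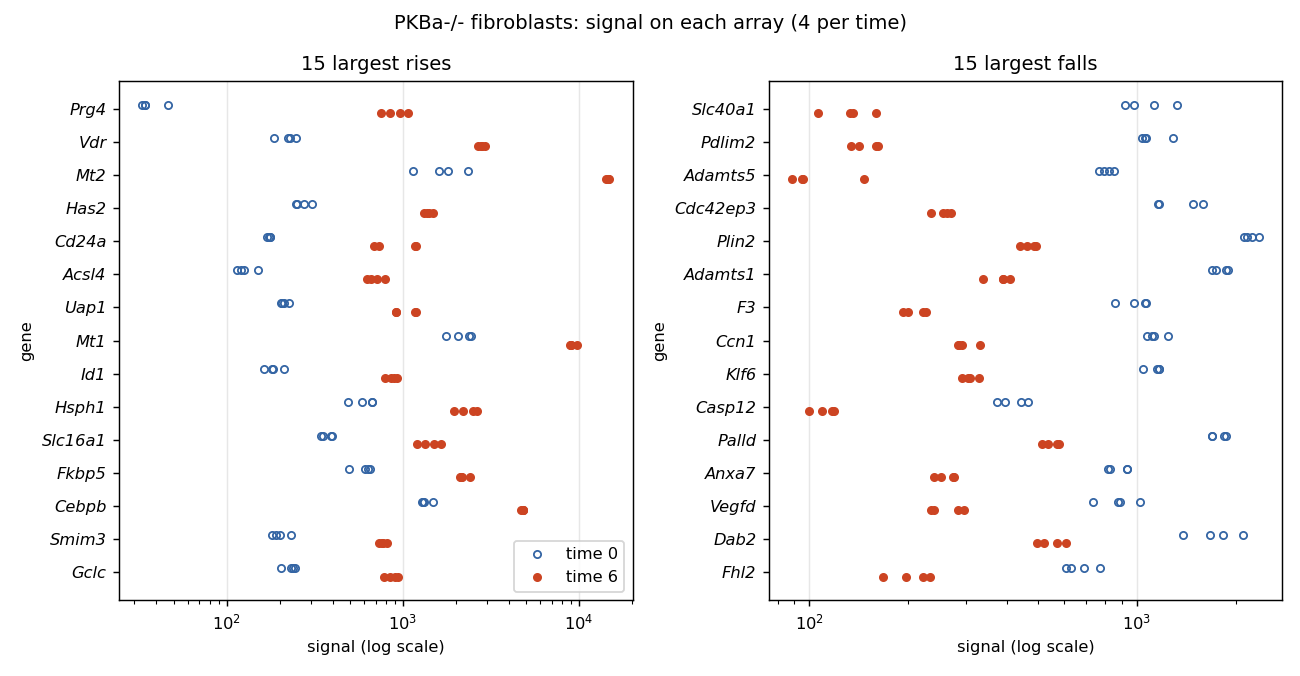
Signal of the 15 largest rises and the 15 largest falls in PKBa-/- fibroblasts on each of the 4 arrays of time 0 (open circles) and time 6 (filled circles), on a log axis, with genes in rows. The genes were picked for large changes that passed, so it follows nearly from the choice that the time 0 and time 6 arrays do not overlap for any gene shown. Over all tested genes 43.4% do not overlap. Vdr runs from 186 to 2932 between the lowest time 0 and the highest time 6 array.

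Most genes of ribosome assembly rose. Ribosome biogenesis joins RNA polymerase I transcription, rRNA processing and modification, and the assembly of pre-ribosomes in the nucleolus. Of 50 tested members 42 rose and 1 fell, against 19.8% and 20.5% of all genes, and 35 rose from pair averages. The median change was 0.59, and 0.63 within replicates 1 and 2 and 0.56 within replicates 3 and 4. Rrp1b, a nucleolar protein, was measured at 235, 222, 195 and 188 and then 822, 814, 726 and 732 (change 1.74 ± 0.10, limma, adjusted p = 4.6e-15). Nolc1, a nucleolar phosphoprotein that binds snoRNPs, read 336, 347, 285 and 277 and then 1143, 1149, 851 and 922 (change 1.60 ± 0.10). Rcl1 and Nop56, a processing factor and a core protein of box C/D snoRNPs, changed by 1.22 ± 0.13 and 1.20 ± 0.11. Polr1a and Polr1b, subunits of RNA polymerase I, changed by 0.87 ± 0.09 and 0.75 ± 0.08, while Ubtf, a transcription factor of the same polymerase, was the member that fell, at -0.27 ± 0.09, a call lost from pair averages (adjusted p = 0.16).

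**Figure D2:**
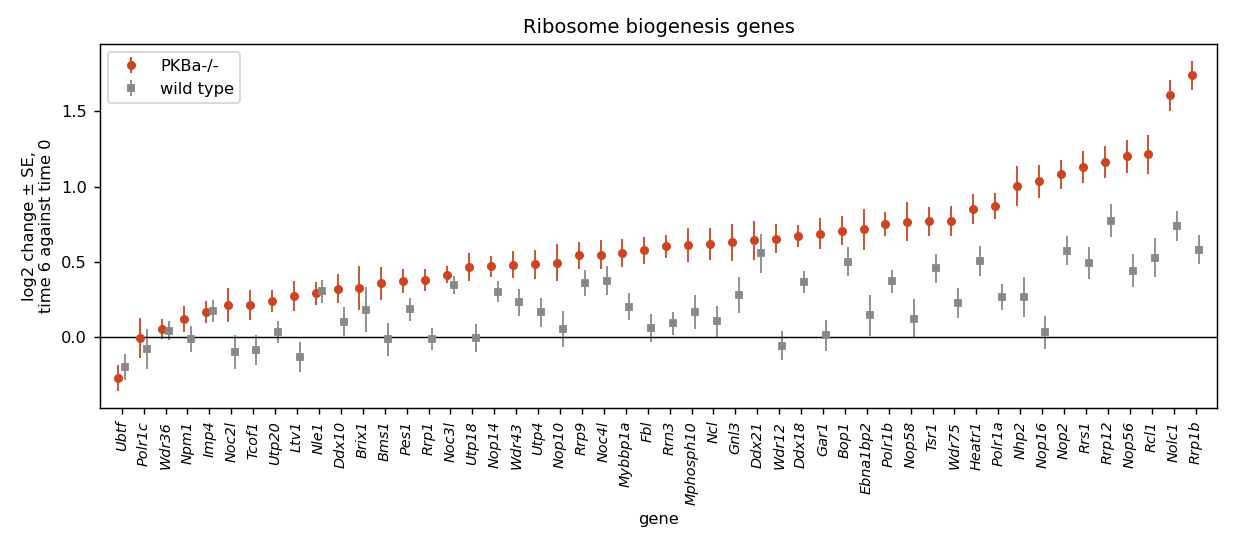
Log2 change ± SE from time 0 to time 6 for each tested gene of ribosome biogenesis, in PKBa-/- (circles) and wild type (squares), in order of the PKBa-/- change. 42 of 50 passed as rises in PKBa-/- and 20 in wild type, and Rrp1b is the highest at 1.74.

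The wild type counts for the same list were 20 rises (all genes: 15.6%) with a median of 0.18. The difference between genotypes passed for 19 members, all with the higher change in PKBa-/- (all genes: 5.0%), and for 1 from pair averages (all genes: 0.215%). Genes of the ribosomal proteins themselves stayed close to 0: 1 of 41 rose, 2 fell and the median was 0.02. Of 20 genes of nucleotide synthesis 11 rose and 2 fell (8 and 1 from pair averages). Cad and Ctps, which make pyrimidines, changed by 0.96 ± 0.09 and 0.92 ± 0.12, and Gart and Ppat, which make purines, by 0.92 ± 0.09 and 0.88 ± 0.10. The paralog Ctps2 and the purine enzyme Paics fell, at -0.82 ± 0.09 and -0.42 ± 0.10, and from pair averages Ctps2 kept its call (adjusted p = 0.0017) and Paics did not (adjusted p = 0.07). Of 35 translation factors 14 rose and 4 fell (5 and 2 from pair averages). They included the eIF2B subunits Eif2b1 and Eif2b4, at 0.73 ± 0.10 and 0.71 ± 0.09. Aminoacyl-tRNA synthetases, which charge tRNAs, were divided, with 7 of 17 rising and 3 falling (2 and 1 from pair averages).

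Myc, a transcription factor that binds E-boxes in growth genes, had a signal of 240.1, 237, 224 and 247 at time 0 and 645, 555, 603 and 678 at time 6. It rose by 1.28 ± 0.11, against -0.06 ± 0.11 in wild type, and the difference between genotypes was 1.34 ± 0.16 (limma, adjusted p = 4.9e-07). Mxi1 and Mnt, which compete with Myc for its partner Max, fell, by 0.45 and 0.35 on the log2 scale. In wild type they changed by -0.49 and -0.21, and neither difference between genotypes passed (limma, adjusted p = 0.91 and 0.48). Of 11 tested genes of the Myc network 2 rose and 3 fell (1 and 2 from pair averages). Max itself was at 0.20 ± 0.20 (adjusted p = 0.47) and did not pass. The letters CACGTG, the E-box palindrome, which reads the same on both strands, stood in 4 of 52 RefSeq promoter windows of the ribosome biogenesis genes (7.69%), each window being the 250 bases before a gene start, against 6.02% of all windows of this length and 8.64% of those of tested genes. Windows were found for 43 of 50 genes. The gene with more than 1 copy was Rrn3, a polymerase I initiation factor that changed by 0.60 ± 0.07, whose window is shown with the palindromes in capitals (GRCm38.p6, chr16:13780449-13780698, strand +).
Rrn3: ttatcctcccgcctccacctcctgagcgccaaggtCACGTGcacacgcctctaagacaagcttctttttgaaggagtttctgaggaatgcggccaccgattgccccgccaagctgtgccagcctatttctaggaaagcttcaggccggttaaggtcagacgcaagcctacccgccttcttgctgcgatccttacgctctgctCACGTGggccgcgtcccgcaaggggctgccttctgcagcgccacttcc

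Genes that respond to glucocorticoids, metals and cAMP were among the strong rises. Metallothioneins are small cysteine-rich proteins that bind zinc and copper, and their genes respond to metals and to glucocorticoids. Mt2 had signals of 1138, 1604, 1794 and 2328 at time 0 and 14611, 14257, 14831 and 14526 at time 6, and Mt1 1761, 2364, 2044 and 2423 and 8966, 9699.6, 8993 and 8837. Their changes were 3.11 ± 0.15 and 2.08 ± 0.15 in PKBa-/- and 3.02 ± 0.15 and 2.75 ± 0.15 in wild type. The promoters of both are shown because both genes rose strongly and lie near each other on chromosome 8, with the letters TGCACNC or TGCGCNC, the core of metal response elements, in capitals on either strand. Of all RefSeq windows of this length 21.4% hold this core, and of those of tested genes 30.6%. The windows lie at GRCm38.p6 chr8:94178839-94179088 and chr8:94172368-94172617, both on the + strand.
Mt1: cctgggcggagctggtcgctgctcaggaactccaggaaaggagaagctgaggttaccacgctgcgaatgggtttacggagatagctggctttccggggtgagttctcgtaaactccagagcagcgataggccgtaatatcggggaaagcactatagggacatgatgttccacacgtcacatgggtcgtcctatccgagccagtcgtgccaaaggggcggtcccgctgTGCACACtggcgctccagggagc
Mt2: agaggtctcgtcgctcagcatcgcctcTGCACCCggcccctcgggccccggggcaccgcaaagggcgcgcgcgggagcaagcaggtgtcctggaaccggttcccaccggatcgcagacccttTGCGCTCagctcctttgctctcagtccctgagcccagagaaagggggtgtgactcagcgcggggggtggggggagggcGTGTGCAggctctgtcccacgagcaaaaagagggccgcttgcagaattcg

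The Mt1 window held 1 core and the Mt2 window 3, a description of letters and not of bound factors. Slc39a14, an importer of zinc and iron, rose by 0.87 ± 0.11, and 4 of 7 metal response genes rose in all (3 from pair averages). The other 3 did not pass, among them Slc30a1 at 0.02 ± 0.09 and Mtf1 at 0.08 ± 0.09 (limma, adjusted p = 0.9 and 0.55). Of 19 glucocorticoid targets 9 rose and 2 fell, with a median of 0.36, and 7 rose from pair averages. Both metallothioneins are in this list too. Fkbp5, a co-chaperone of the glucocorticoid receptor, had 609, 497, 635 and 655 and then 2407, 2104, 2169.8 and 2132 (change 1.83 ± 0.09). Dusp1, a phosphatase of MAP kinases, and Per1, a clock repressor, changed by 1.38 ± 0.13 and 1.56 ± 0.08. The receptor gene itself, Nr3c1, and Anxa1 were the members that fell, at -0.71 ± 0.08 and -0.86 ± 0.12. Another 8 did not pass, among them Sgk1 at -0.20 ± 0.21 and Klf9 at -0.02 ± 0.09 (limma, adjusted p = 0.48 and 0.92). In wild type 13 members rose and 1 fell (all genes: 15.6% and 20.7%), with a median of 0.89. The difference between genotypes passed for 0 members with the higher change in PKBa-/- (all genes: 5.0%) and 5 with the lower (all genes: 3.81%). From pair averages these were 0 and 1 (all genes: 0.215% and 0.336%).

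cAMP response genes include targets of the factor CREB. Of 14 tested 7 rose (4 from pair averages), with a median of 0.37. In wild type 9 rose (all genes: 15.6%), with a median of 0.52. The difference between genotypes passed for 1 with the higher change in PKBa-/- (all genes: 5.0%) and 3 with the lower (all genes: 3.81%). From pair averages these were 0 and 1 (all genes: 0.215% and 0.336%). Ramp3 was at 0.41 ± 0.29 (adjusted p = 0.28) against 3.77 in wild type. Rgs2 was at 1.24 ± 0.28 against 3.20, a PKBa-/- call lost from pair averages (adjusted p = 0.071). Cebpb, a factor of the early phase of adipocyte differentiation, read 1288, 1479, 1297 and 1316 and then 4805, 4835, 4652 and 4807, a change of 1.81 ± 0.17. Pde4b, which breaks down cAMP, and the orphan nuclear receptor Nr4a2 changed by 1.09 ± 0.16 and 1.03 ± 0.13. A list of adipogenic regulators and adipocyte genes, which holds Cebpb too, ran from Plin2 at -2.17 to Cebpb at 1.81. Of its 19 tested genes 2 rose and 3 fell (1 and 1 from pair averages). Cebpa was at -0.16 ± 0.13 (adjusted p = 0.35) and Lpl at 0.08 ± 0.17 (adjusted p = 0.76). Clock genes moved both ways, 6 of 14 up and 5 down (2 and 3 from pair averages). Per1 and Nfil3 rose, the latter by 1.23 ± 0.12, and the nuclear receptors Nr1d2 and Rora fell, at -1.29 ± 0.18 and -0.82 ± 0.15. Another Rora probe set changed by -0.68, and the third was at 45.9 and 46.0, near the low end of the arrays. Immediate early genes, the first to be transcribed after a stimulus, were mixed as well, with 4 of 17 rising and 6 falling (2 and 5 from pair averages). Klf6 and Egr1 fell, at -1.77 ± 0.13 and -1.55 ± 0.23, and Junb rose by 0.71 ± 0.11.

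Id proteins bind and block basic helix-loop-helix factors and are targets of BMP signalling. Id1 signal was 180.5, 183, 163 and 212 at time 0 and 929, 789.9, 895 and 857 at time 6. No time 0 array reached the time 6 range, and the change was 2.06 ± 0.10 (limma, adjusted p = 3.5e-17). Id3 rose by 1.16 ± 0.12, from 666, 772, 655 and 777 to 1667, 1573, 1666 and 1646. Fst, follistatin, which binds activin and BMPs, read 107, 91.9, 96.6 and 95.1 and then 468, 461, 374 and 345 (change 1.77 ± 0.21). The ligand Bmp4 fell, at -1.50 ± 0.22, with signals of 589, 618, 215 and 236 and then 139, 140.2, 97.2 and 77.9. Replicates 1 and 2 of Bmp4 lay far above replicates 3 and 4 at time 0, and the lowest time 0 array was above the highest time 6 array. Of 30 tested TGF-beta and BMP genes 11 rose and 5 fell, 5 and 2 from pair averages. The difference between genotypes passed for 9 of them with the higher change in PKBa-/- (all genes: 5.0%) and 1 with the lower (all genes: 3.81%). From pair averages 3 had the higher change (all genes: 0.215%).

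**Figure D3:**
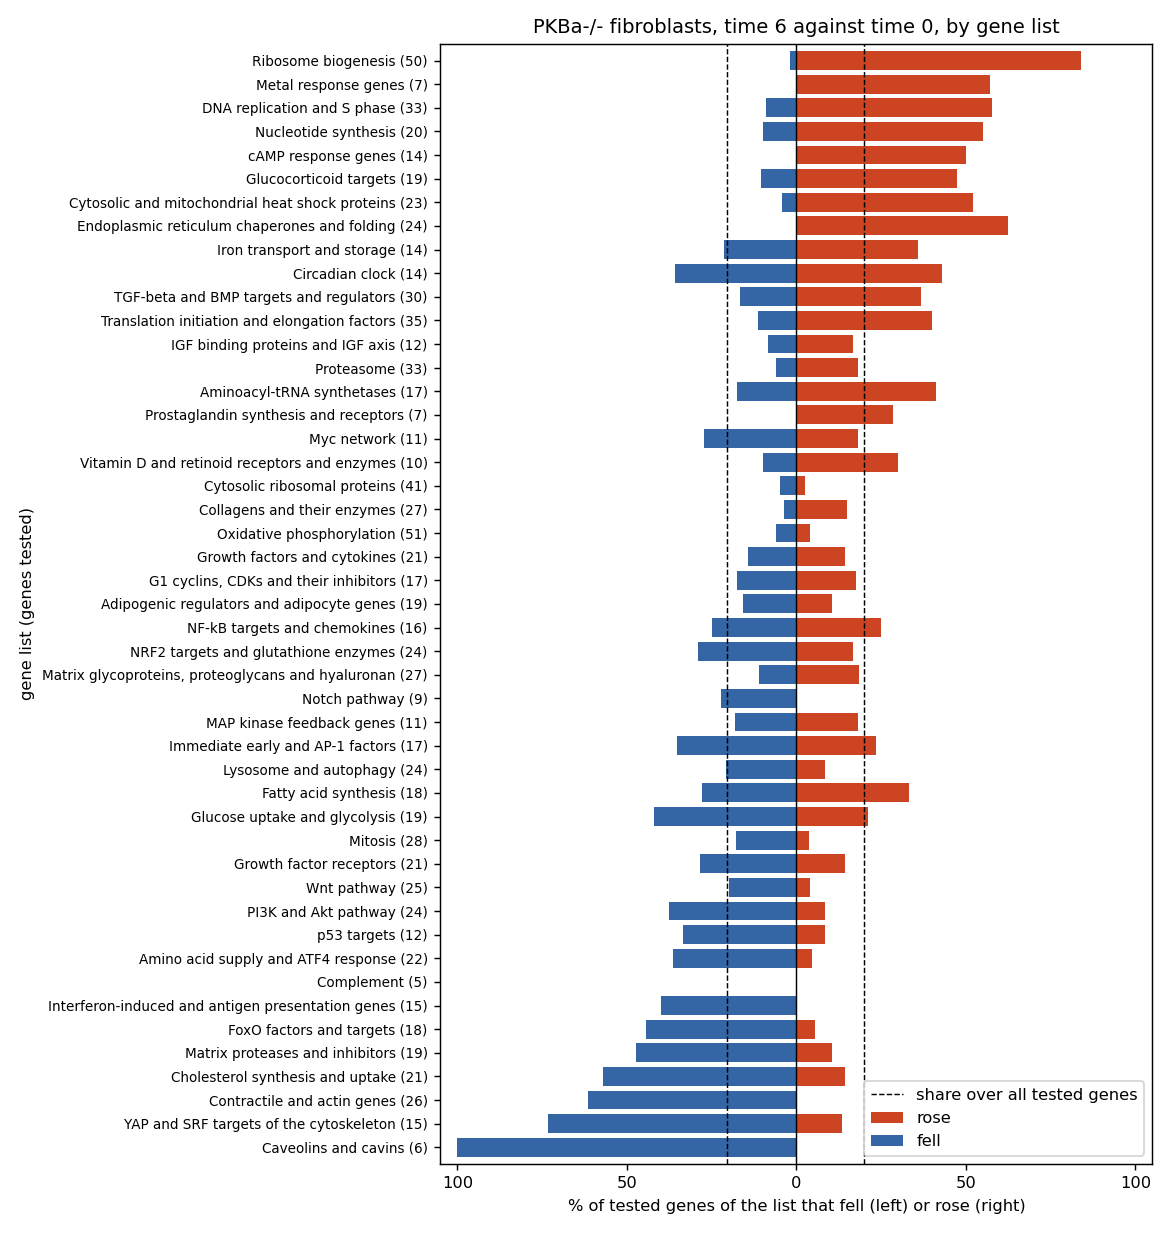
Share of the tested genes of each list that rose (right) or fell (left) in PKBa-/- fibroblasts, in percent, with the number tested in brackets and lists ordered by median change. Dashed lines mark the shares over all tested genes, 19.8% rising and 20.5% falling, and ribosome biogenesis and the caveolins lie at the ends.

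Genes of the actin cytoskeleton that changed were lower at time 6. Of 26 contractile and actin genes 16 fell, 6 from pair averages, with a median of -0.37. Cnn2, a calponin, and Zyx, zyxin of focal adhesions, changed by -1.16 ± 0.16 and -1.09 ± 0.09. The abundant actin gene Actb was at -0.11 ± 0.06 (adjusted p = 0.19) and Acta2 at -0.10 ± 0.10 (adjusted p = 0.46). Targets of YAP and SRF, factors that respond to actin and cell tension, fell for 11 of 15 and rose for 2 (8 and 1 from pair averages). Ccn1, a matricellular protein, had 1128, 1243, 1110.2 and 1069.8 and then 293, 332, 287 and 284 (change -1.82 ± 0.26). Thbs1, thrombospondin, and Fhl2, a LIM protein, changed by -1.49 ± 0.19 and -1.57 ± 0.12.

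Caveolins and cavins shape the membrane pits called caveolae. All 6 tested members fell (5 from pair averages), with a median of -1.10. Cav1 read 1728, 1742, 1650.4 and 1484 and then 906, 915, 661 and 694, a change of -1.04 ± 0.12. Cavin2 read 192, 237, 123 and 150.4 and then 47.7, 57.7, 42.2 and 43.1, a change of -1.35 ± 0.18, at signals far below the wild type means of 1843 ± 92.8 and 2759.8 ± 789 (SD, n = 4 each). In wild type 2 members rose and 3 fell (all genes: 15.6% and 20.7%). The difference between genotypes passed for 3, all with the lower change in PKBa-/- (all genes: 3.81%), and for 1 from pair averages (all genes: 0.336%).

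Matrix proteases and their inhibitors were lower for 9 of 19 genes and higher for 2 (7 and 1 from pair averages). Besides the ADAMTS genes, Mmp11 changed by -1.43 ± 0.19, and the inhibitor Timp1 rose by 1.29 ± 0.14. The main fibrillar collagens did not pass: Col1a1 was at 0.05 ± 0.09 (adjusted p = 0.71) and Col3a1 at -0.01 ± 0.09 (adjusted p = 0.96), and 4 of 27 collagen genes rose (3 from pair averages). Those were the basement membrane chains Col4a1 and Col4a2, at 0.70 ± 0.14 and 0.64 ± 0.09, Col7a1, at 0.53 ± 0.15 (from pair averages adjusted p = 0.11), and the collagen lysyl hydroxylase Plod2, at 1.00 ± 0.09. Vcan, the proteoglycan versican that binds hyaluronan, rose by 1.53 ± 0.14 beside Has2.

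Genes of DNA replication leaned towards rises and those of mitosis did not. Of 33 replication genes 19 rose and 3 fell, 8 and 1 from pair averages, with a median of 0.41. Rrm2, a subunit of ribonucleotide reductase, read 530.0, 675, 533 and 427 and then 1567, 1531, 1259 and 1370.3 (change 1.36 ± 0.14). Mcm5, of the replicative helicase, and Cdt1, which loads it, changed by 0.77 ± 0.12 and 0.80 ± 0.12, and another Cdt1 probe set by 0.81. Of 28 mitotic genes 1 rose and 5 fell (3 from pair averages for falls), among them Ccnb2, cyclin B2, at -0.83 ± 0.14. Among G1 regulators the CDK inhibitor Cdkn2b fell, at -1.25 ± 0.18, and cyclin D3, Ccnd3, rose by 0.68 ± 0.09, while Ccnd1 was at -0.06 ± 0.33 (adjusted p = 0.91). The p53 targets Plk2 and Gadd45a changed by -1.45 ± 0.20 and -1.25 ± 0.16.

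Lipid genes moved both ways. Of 21 cholesterol genes 12 fell and 3 rose, but from pair averages 2 fell and 3 rose. Fdft1, which makes squalene, changed by -0.83 ± 0.16, and another of its probe sets by -0.82, while the dimmer ones were at -0.01 and 0.06. Pmvk, a kinase of the mevalonate pathway, rose by 1.41 ± 0.22. In fatty acid synthesis Acsl4, which activates arachidonic acid, read 115, 126, 151 and 121 and then 662, 787, 629 and 709 (change 2.19 ± 0.23), and Scd1, a desaturase, changed by 1.63 ± 0.13. Fads3, a paralog of the fatty acid desaturases, fell, at -1.07 ± 0.12. Of 18 fatty acid genes 6 rose and 5 fell (4 and 4 from pair averages). Glycolytic genes fell for 8 of 19 and rose for 4 (3 and 2 from pair averages), with Hk2, a hexokinase, at 1.60 ± 0.20 and Eno2, an enolase, at -1.0 ± 0.13. Oxidative phosphorylation genes were near the median of all genes, 2 rising and 3 falling of 51, where cytochrome c, Cycs, was the largest rise at 0.88 ± 0.14.

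Both chaperone lists held more rises than falls. Of 23 heat shock proteins 12 rose and 1 fell (7 and 1 from pair averages), the fall being St13, a co-chaperone, at -0.55 ± 0.11. The largest rise was Hsph1, an HSP70 exchange factor that read 672, 669, 491 and 589.8 and then 2633, 2514, 1958 and 2196. Of 24 endoplasmic reticulum genes 15 rose, but 3 from pair averages, where 8.59% of all genes rose, Hspa5 at 0.70 ± 0.08 among them. Genes of amino acid supply and the ATF4 stress response fell for 8 of 22 and rose for 1 (4 from pair averages for falls), with Trib3, a pseudokinase, at -1.09 ± 0.12 and Ddit3 (CHOP) at -0.96 ± 0.10. NRF2 targets, which defend against oxidants, rose for 4 of 24 and fell for 7 (4 and 3 from pair averages). Gclc, of glutathione synthesis, rose by 1.78 ± 0.12 and Srxn1, sulfiredoxin, by 1.70 ± 0.11, while Hmox1, haem oxygenase, fell, at -1.24 ± 0.14.

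In the pathway of PKBa itself, Akt2 had a signal of 627, 616, 609 and 665 at time 0 and 567, 483, 470.3 and 469.5 at time 6. Its change of -0.32 ± 0.09 passed (limma, adjusted p = 0.0045), but not from pair averages (adjusted p = 0.15). Of 24 tested PI3K and Akt genes 9 fell and 2 rose, and 1 fell from pair averages, Ilk, an adhesion-linked pseudokinase, at -0.99 ± 0.15. Irs1, the insulin receptor substrate, changed by -1.72 ± 0.35 (adjusted p = 0.00016), a call lost from pair averages (adjusted p = 0.051). FoxO factors and targets fell for 8 of 18 and rose for 1 (4 and 1 from pair averages). Txnip, an inhibitor of thioredoxin and of glucose uptake, changed by -1.17 ± 0.10 and Ccng2, a cyclin of resting cells, by -1.15 ± 0.14, while Sod2, mitochondrial superoxide dismutase, rose by 0.98 ± 0.14. Among receptors both PDGF receptor genes fell, Pdgfrb at -1.44 ± 0.19 with signals of 1224, 1478, 1418 and 1207 and then 541, 592, 361 and 409.8, and Pdgfra at -0.80 ± 0.15. Il6st, the shared receptor subunit gp130, rose by 1.25 ± 0.12. Of 21 receptors tested 3 rose and 6 fell (2 and 4 from pair averages). Of the Wnt list Ccn4 and the receptor Fzd2 fell, at -1.40 ± 0.10 and -0.98 ± 0.13, and Notch1 fell at -1.06 ± 0.10. Antigen presentation and interferon-induced genes fell for 6 of 15 (4 from pair averages), led by the peptide transporter Tap2 at -0.98 ± 0.07.

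Further gene lists are described by their counts and their leading members. Of iron genes, 5 of 14 rose and 3 fell (2 and 2 from pair averages), with ferroportin beside the rise of Slc39a14. Of vitamin D and retinoid genes 3 of 10 rose and 1 fell (2 and 0 from pair averages). After Vdr the largest rise was Rdh10, a retinol dehydrogenase, at 0.84 ± 0.14, while the partner receptor Rxra was at -0.01 ± 0.09 (adjusted p = 0.94). NF-kB targets and chemokines rose for 4 and fell for 4 of 16 (2 and 2 from pair averages), with Nfkbiz, a nuclear regulator of NF-kB, at 1.21 ± 0.15 and the subunit Relb at -0.49 ± 0.09. Lysosome and autophagy genes rose for 2 and fell for 5 of 24 (0 and 2 from pair averages), among them Sqstm1, a cargo receptor of autophagy, at -0.66 ± 0.07. Proteasome genes rose for 6 and fell for 2 of 33, between -0.38 (Psme1) and 0.44 (Psme3), and all of these calls were lost from pair averages. Wnt genes rose for 1 and fell for 5 of 25 (1 and 3 from pair averages), p53 targets for 1 and 4 of 12 (1 and 3 from pair averages), and growth factors for 3 and 3 of 21 (1 and 2 from pair averages). Matrix glycoproteins rose for 5 and fell for 3 of 27 (3 and 2 from pair averages), with Fn1, fibronectin, at -0.05 ± 0.06 (adjusted p = 0.59).

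Wild type cells were compared between the same times on arrays of their own. There 2700 genes changed (36.3% of genes tested), 1160 rising (15.6%) and 1540 falling (20.7%). After quantile normalization the split was 1520 rising and 1400 falling. From pair averages 886 passed (11.9%), 314 rising (4.22%) and 572 falling (7.69%). Genes that rose in both genotypes numbered 715, which is 48.4% of the PKBa-/- rises and 61.6% of the wild type rises, and 998 fell in both (65.3% and 64.8%). The change itself differed between genotypes for 655 genes (8.81%), 372 with the higher change in PKBa-/- (5.0%) and 283 with the lower (3.81%). Which side held more genes also turned with the setting, at 378 higher and 393 lower after quantile normalization. The count was 41 from pair averages (0.551%, with 0.215% higher and 0.336% lower), 1018 with the replicate number as a block and 1449 with the number as a block within each genotype, so its size depends on how replicates are treated.

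For Adamts1 the genotypes moved in opposite directions, -2.15 ± 0.11 in PKBa-/- and 2.06 ± 0.11 in wild type, a difference of -4.21 ± 0.16 (limma, adjusted p = 2.2e-19). Its time 0 signals were 1799 ± 94.8 in PKBa-/- and 225 ± 28.9 in wild type (SD, n = 4 each), so the genotypes stood apart before time 6. For Slc40a1 the change was -2.75 ± 0.13 against -0.50 ± 0.13, from 1088 ± 178 in PKBa-/- and 215 ± 15.7 in wild type to 134 ± 21.8 and 143 ± 13.5. At time 6 the genotypes were thus near each other, and at time 0 they were not. Id1 showed the reverse order, with time 0 signals of 185 ± 20.1 in PKBa-/- and 1451 ± 196 in wild type and changes of 2.06 ± 0.10 and 0.06 ± 0.10. Vdr began alike, at 222 ± 25.9 and 222 ± 40.5, and changed by 3.49 ± 0.16 and 0.87 ± 0.16, a difference of 2.62 ± 0.23 (limma, adjusted p = 1.2e-09). Abca1, the cholesterol exporter, and Slc1a3, a glutamate transporter, had differences of 2.14 ± 0.24 and 1.80 ± 0.21, and Serpinb9, a granzyme inhibitor, -1.42 ± 0.15.

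**Figure D4:**
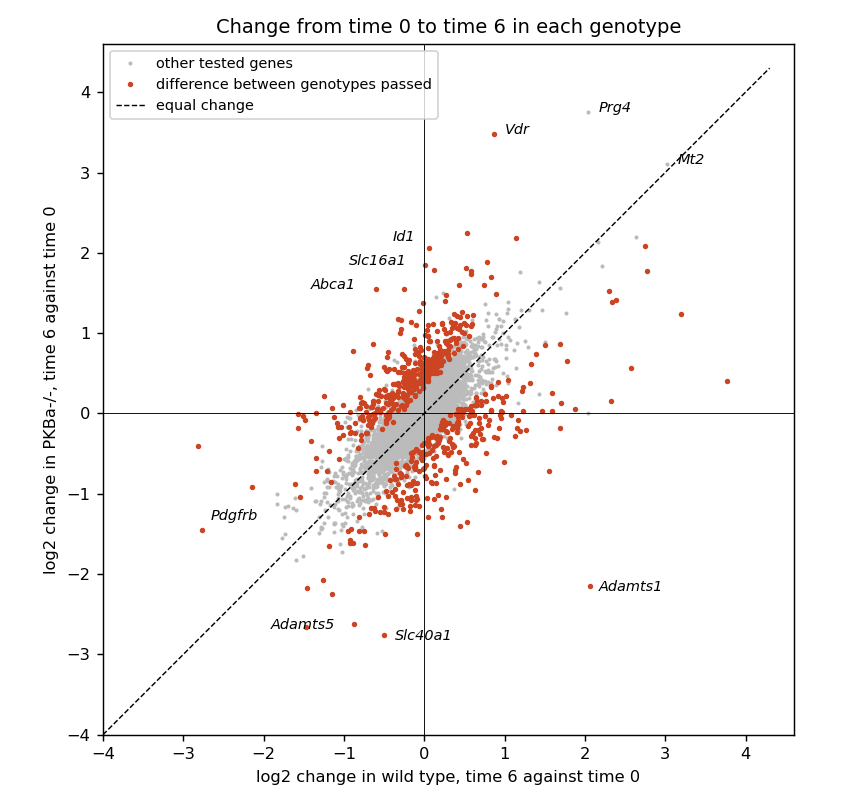
Log2 change from time 0 to time 6 in wild type (horizontal) and PKBa-/- (vertical) for each tested gene, with the genes whose difference between genotypes passed in red and the dashed line marking equal change. Adamts1 lies at -2.15 in PKBa-/- and 2.06 in wild type, far from the line, and Mt2 lies close to it.

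At the other times PKBa-/- arrays were compared with the same time 0 arrays, so those changes share their controls and are set side by side without a test of likeness. Vdr stood at 2.63 ± 0.20 at time 2, 3.49 ± 0.16 at time 6, 2.30 ± 0.16 at time 24 and 1.47 ± 0.16 at time 48 (log2 ± SE). Id1 was at 2.70 ± 0.12, 2.06 ± 0.10, 0.64 ± 0.10 and 0.98 ± 0.10 at these times, highest at time 2. Rrp1b was at 1.23 ± 0.12, 1.74 ± 0.10, 0.46 ± 0.10 and 0.84 ± 0.10. The median of the ribosome biogenesis list was 0.20 at time 2, 0.59 at time 6, -0.04 at time 24 and 0.10 at time 48. Adamts1 was at -1.05 ± 0.14, -2.15 ± 0.11, -0.05 ± 0.11 and 0.05 ± 0.11, back near its starting level at the last times. Slc40a1, by contrast, was at -0.74 ± 0.15, -2.75 ± 0.13, -2.03 ± 0.13 and -2.13 ± 0.13, and Cavin2 at -0.18 ± 0.22, -1.35 ± 0.18, -0.93 ± 0.18 and -1.43 ± 0.18. Slc40a1 was below time 0 at each later time, while the time 2 arrays of Cavin2 lay inside its time 0 range.

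**Figure D5:**
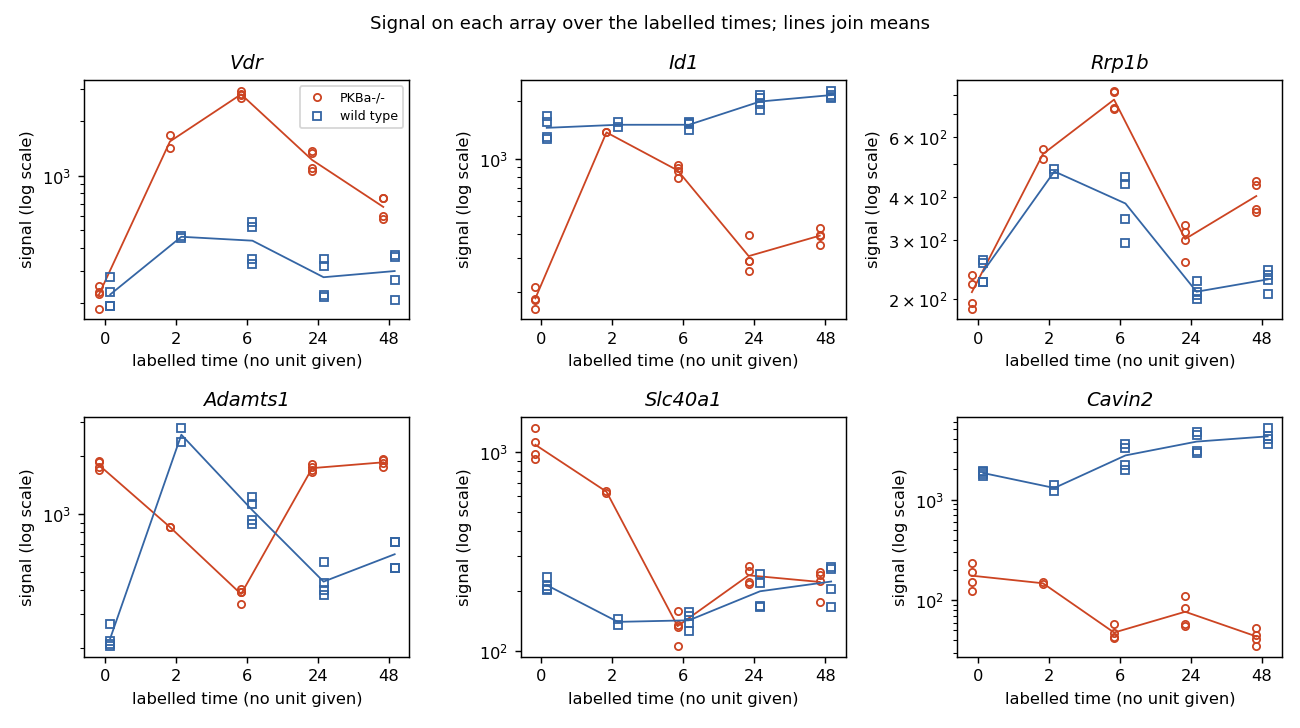
Signal on each array at the labelled times in PKBa-/- (circles) and wild type (squares) for 6 genes, on log axes, with lines joining group means. Vdr peaks at time 6 in PKBa-/- with a mean of 2798, and Adamts1 has its lowest PKBa-/- mean there, 382.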

How the data were processed

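RNA was measured on 36 microarrays. The deposited values are intensities on a linear scale, 1 per probe set and array. The authors' array processing and normalization steps are not given in the sources used. Of 22690 probe sets 20380 named 1 gene, 691 several, 1555 none and 64 were controls. Each gene was read on its brightest single-gene probe set. The values were used as log2(signal + 32), so a fold change is on that scale and understates changes of dim genes. The 40% of 12393 genes with the lowest mean were not tested, which left 7436. limma 3.58.1 in R 4.3.3 was fitted to all 36 arrays with 10 group means, with Benjamini-Hochberg adjustment over all genes tested and a threshold of 0.05. An SE is that of the fitted difference. SE and adjusted p of single genes treat the arrays as independent unless pair averages are named. From pair averages the adjusted p is weaker, for Rrp1b 4.1e-05 against 4.6e-15 (limma). Same-numbered replicates deviated together between times 0 and 6 (correlations 0.38 to 0.59 in PKBa-/- and 0.65 to 0.71 in wild type). This correlation was not taken between different numbers, so it cannot tell pairing by number from deviations shared within replicate pairs. Pairing by number was therefore not tested. On simulated data for PKBa-/- time 6 against time 0 (7436 genes) the fit recovered 91% of 1.5-fold and 100% of 2-fold changes with 8 false calls. With deviations shared by pairs it made 319 false calls, against 17 from pair averages, which recovered 58.2% and 95.5%. Named by rule were Akt1 and Akt2, the 15 largest rises and 15 largest falls that also passed from pair averages with 1 sign in both replicate sets, up to 4 such members of each of 48 lists, and 8 genes each way for the difference between genotypes. Other genes were chosen after their values were seen. The members and lists were chosen with earlier results of these data known. Of 122 further probe sets of named genes 4 had the opposite sign, those of Cdt1, Fdft1 and Rora at dim signals with changes near 0 and that of Tsc22d1 at -0.44. Promoter sequences are from RefSeq, GRCm38.p6. Alternatives tried were other offsets and filters, probe set averages, quantile normalization, an intensity trend, array weights, replicate blocks, replicate sets, pair averages and leaving out each array.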

Additional observations from a re-analysis of the deposited data

Results flagged for a closer look

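Results whose change from time 0 to time 6 differed between PKBa-/- and wild type by the test of the difference (limma, adjusted p under 0.05) are given as the PKBa-/- change minus the wild type change on the log2 scale. Of 134 tested genes named in the text and screened, 61 met this. Ramp3 and Rgs2, given with the cAMP response genes, were not in this screen. Some genes had been named for a small p in this same test, and others after their values were seen. The count is therefore not comparable with the share over all tested genes, 8.81% (0.551% from pair averages). The widest gaps above wild type were Vdr 2.62, Abca1 2.14, Id1 1.99, Slc16a1 1.84, Slc1a3 1.80, Has2 1.72 and Smim3 1.66. Next in size came Id3 1.45, Myc 1.34, Pdgfrb 1.33, Tsc22d1 1.30, Cebpb 1.28, Hk2 1.16 and Rrp1b 1.15. Smaller gaps followed for Hsph1 1.11, Acsl4 1.05, Ctps 1.05, Cdt1 0.92, Srxn1 0.87, Nolc1 0.86 and Nfkbiz 0.81. Further down were Junb 0.78, Nop56 0.76, Lpl 0.74, Rcl1 0.69, Nfil3 0.62, Gart 0.60 and Polr1a 0.60. Near the end were Plod2 0.51, Rrn3 0.51, Ppat 0.49, Cad 0.40, Polr1b 0.38 and Actb 0.28. On the lower side the widest gaps were Adamts1 -4.21, Slc40a1 -2.26, Cavin2 -1.88, Adamts5 -1.74, Serpinb9 -1.42, Cav1 -1.31 and Pdlim2 -1.19. These were followed by Cdc42ep3 -1.10, Notch1 -1.09, Gclc -1.0, Pmvk -0.98, Rb1cc1 -0.97, Ccng2 -0.97 and Dusp1 -0.96. Lesser gaps belonged to Fads3 -0.91, Palld -0.90, F3 -0.82, Anxa1 -0.77, Vcan -0.77, Vegfd -0.72 and Plin2 -0.71. The smallest gaps below wild type were Dab2 -0.68, Mt1 -0.67, Fhl2 -0.65, Tap2 -0.58, Txnip -0.55 and Casp12 -0.46. Over all genes 655 differences passed with single arrays and 41 from pair averages. The gaps listed here are calls from single arrays, and part of them was lost from pair averages. Those of Has2, Hsph1, Ctps, Gart, Ppat and Cad were among the calls lost. The ribosome biogenesis list and the Myc network each kept 1 higher difference.

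A single array stood far from the other 3 of its group in 15 of 268 groups of 4 screened, where chance alone gives about 1 in 20. These signals were Adamts5 at time 6, with 146, Akt2 at time 6, with 567, Cebpb at time 0, with 1479, and Cebpb at time 6, with 4652. Others were Col1a1 at time 6, with 13494, Eif2b4 at time 0, with 390.2, Fn1 at time 6, with 9509.7, and Junb at time 0, with 391. The rest were Klf6 at time 0, with 1040.3, Nop56 at time 6, with 2229, Pdlim2 at time 0, with 1287, Prg4 at time 0, with 46.5, Rdh10 at time 0, with 134, Relb at time 0, with 209, and Sqstm1 at time 0, with 2414.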

How the results depend on the processing

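The counts moved most with the treatment of replicate pairs. For PKBa-/- the main count of 3004 became 1366 from pair averages and 1671 with a random pair effect, and 2665 to 2846 when each array was left out in turn. The replicate block gave 3396, and the block within genotype, added after seeing the data, 3763. In wild type the count of 2700 became 4239 with array weights, 886 from pair averages and 1265 with a random pair effect, and 2360 to 2588 without single arrays. The difference between genotypes, 655 genes, was 1728 with array weights, 1018 with the replicate block, 1525 with the replicate set as a term within genotype, 1449 with the replicate block within genotype, 2015 in replicates 1 and 2 alone, 41 from pair averages and 173 with a random pair effect. Without single arrays it was 541 to 694. The cause of these shifts was not tested. Offset, filter, probe set averaging, quantile normalization and an intensity trend kept all 3 counts within 1.5 times the main ones. Of 155 genes named by rule, 153 kept direction and call under every alternative that tested them, where the 60% filter tested 133 and the mean of all probe sets 150. The exceptions were Dusp16, lost in replicates 3 and 4 alone, and Akt2, lost from pair averages and with a random pair effect. All but Akt1 and Akt2 could be named only if they passed from pair averages with 1 sign in both replicate sets. Their agreement under those settings was therefore largely fixed by the rule and is no separate check. Which direction held more genes did change. In PKBa-/- 1476 rising and 1528 falling became 1572 and 1531 with the mean of all probe sets and 1930 and 1868 in replicates 1 and 2 alone. Rises also led without time 0 replicate 2 (1445 and 1385), time 6 replicate 3 (1470 and 1376) or time 6 replicate 4 (1421 and 1358). In wild type quantile normalization gave 1520 and 1400 rising and falling. The difference between genotypes was 378 and 393 higher and lower after it, and 370 and 381 in replicates 3 and 4 alone. With a random pair effect it was 77 and 96, and from pair averages 16 and 25. The number of arrays and the pair structure limit the precision, and signals near the low end of the arrays carry little information on fold change.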

Other observations

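Some rises and falls lay outside the groups described. Smim3, a small membrane protein, rose by 1.79 ± 0.11, and Tsc22d1 rose by 1.00 ± 0.09, with other probe sets at 1.08 and, on a dim one, -0.44. Casp12, a caspase of the endoplasmic reticulum, read 395, 464, 374 and 443 at time 0 and 109, 100.0, 117 and 119 at time 6 (change -1.65 ± 0.09). Vegfd, a lymphatic growth factor, changed by -1.62 ± 0.12, and the endocytic adaptor Dab2 by -1.61 ± 0.14. Anxa7, an annexin, fell at -1.63 ± 0.19. Rb1cc1, a part of the complex that starts autophagy, changed by -1.07 ± 0.08 against -0.11 ± 0.08 in wild type, a difference of -0.97 ± 0.11 (limma, adjusted p = 2.8e-07).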
